A study of Homo sapiens with 16 samples.

Results

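The regions described here are 2196 bins of 100 kb that, of all bins of their chromosomes, sent the largest part of their contacts with other chromosomes (trans contacts) to chromosomes 16, 17, 19 and 20. They were selected on 21906 bins of chromosomes 1 to 12, 14, 15 and 21, out of 30971 bins in the genome. For each bin the trans signal of both 12 h libraries was added, the share that went to the 4 chromosomes was taken, and the top 10% of bins within each chromosome became members. The 12 h values of this gene-rich trans share therefore chose the members and are given below as a description only. All other bins of the same chromosomes, and the 2196 bins in the lowest 10% of the same share, serve as comparison.

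In interphase nuclei each chromosome occupies its own territory, and small chromosomes with many genes tend to lie towards the nuclear interior while chromosomes with few genes tend to lie at the periphery. Within a chromosome, active and gene-dense chromatin (the A compartment) contacts other active chromatin more than it contacts inactive chromatin (the B compartment), and this preference extends to contacts between chromosomes. Chromosomes 19, 17 and 22 are among those found towards the interior in human cells.

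The method was Hi-C, in which DNA ends held close together inside nuclei are ligated and the resulting junctions are sequenced. The cells were K562, an established human myeloid leukaemia line with a rearranged genome and fixed with 2% formaldehyde. The groups differ only in how long the restriction enzyme HindIII cut the chromatin in nuclei, 0.25, 1, 3 or 12 h, with 2 replicate libraries per time, and the series set out to find which domain boundaries are accessible at short digestion. Each library was sequenced in 2 runs, and the values below come from the second run unless the first is named.

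The second-run libraries held 62777251 to 176412221 contacts and the first-run libraries 8918994 to 20237350. Depth rose with digestion time within each replicate number, so depth and time were not separate. Nothing in the labels says that the replicates are separate cultures, so p-values measure the spread between these libraries only. The deposited signal was balanced, which gives every bin the same total, so all shares of signal are relative to that total. Whole contacts were also recovered from the balanced signal. PCR copies carry no molecular identifiers, so intervals on contacts cover counting error only.

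The name gene-rich was checked against protein-coding genes per Mb. Chromosomes 19 and 17 ranked first and second, with 24.5 and 14.4 genes per Mb, chromosome 16 had rank 4 with 9.45 and chromosome 20 rank 6 with 8.52. Chromosome 11, with 9.64, and chromosome 22, with 8.79, lay between them but were not among the 4 chromosomes of the rule. Genes were divided by full chromosome lengths, which understates the density of a chromosome with long stretches without signal. The ranks hold for full lengths only. The name thus holds for 19 and 17 and less sharply for 16 and 20.

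The share needed to enter the top 10% differed between chromosomes, from 11.7% on chromosome 4 to 23.6% on chromosome 9. The median over all bins of a chromosome ran from 7.92% on chromosome 4 to 14.5% on chromosome 15. Since the rule ranks within a chromosome, a member of chromosome 4 can have a lower share than a typical bin of chromosome 15. The line did not fall at a gap. On chromosome 1 the last member, chr1:25400001-25500000, had 20.68% and the first bin below it, chr1:11000001-11100000, had 20.66%. The corresponding values were 17.19% for chr6:35200001-35300000 and 17.15% for chr6:27300001-27400000, and 21.94% for chr21:45800001-45900000 and 21.86% for chr21:45000001-45100000. The median member had 2656 trans contacts at 12 h over both libraries, of which 378 went to the 4 chromosomes, and the 95% Wilson interval of its share reached 1.34 percentage points to each side. That margin exceeds the difference across the line in all 3 pairs, so membership near the line is not settled at this depth. Of the 2196 members, 43 had fewer than 500 trans contacts.

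The members lay in blocks. They formed 573 runs of neighbouring bins, of which 290 were single bins, while 53 runs of 10 or more bins held 1106 members, 50.4% of all. The longest run was chr6:29700001-36000000 with 63 members, followed by chr6:38100001-43700000 with 56, chr11:63200001-68700000 with 55, and chr3:48300001-53700000 and chr4:1-5400000 with 54 each. Coordinates are those of build hg19.

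Members were also concentrated towards chromosome ends. Within 5 Mb of an end lay 426 members, 19.4%, where 6.06% of all bins of these chromosomes lie there. Read the other way, 32.1% of end bins were members against 8.60% of bins elsewhere. The lowest 10% of bins showed no such excess, with 4.64% near an end. Chromosomes differed widely: all 36 members of chromosome 21 and 41.0% of those of chromosome 9 were near an end, but only 1.19% on chromosome 6 and 1.24% on chromosome 15.

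In the 5 highest members with at least 3 of their 5 bins of 20 kb listed, most of the gene-rich signal went to chromosome 16. The bin chr6:300001-400000 sent 49.4% of its 12 h trans signal to the 4 chromosomes and 43.5% to chromosome 16 alone. In recovered contacts its share was 44.2% of 17654 trans contacts (95% Wilson interval 43.5 to 45.0%). The bins chr1:146300001-146400000 with 47.3%, chr6:200001-300000 with 40.4% and chr6:38400001-38500000 with 39.2% likewise sent 38.6%, 32.6% and 33.4% to chromosome 16. The bin chr9:141000001-141100000, with 40.1%, was more mixed and sent 23.1% to chromosome 16, 7.86% to chromosome 19 and 6.54% to chromosome 17. Members with fewer bins of 20 kb listed reached higher shares, which are given below.

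Members that sent over 60% of their gene-rich trans signal to 1 chromosome numbered 119, a line drawn after the values were seen. Of these, 51 were bins of chromosome 9 led by chromosome 17 and 42 were bins of chromosome 6 led by chromosome 16. The 51 bins sent a median of 17.6% of trans signal to chromosome 17, where the median bin of chromosome 9 sent 3.64%. The 42 bins sent 15.98% to chromosome 16, where the median bin of chromosome 6 sent 3.30%. The line took in only 1 of the 47 members of the run chr1:109100001-113800000. This run sent 10.96% of trans signal to chromosome 20, where the median bin of chromosome 1 sent 2.34%. Its remaining bins are counted among the members not led by 1 chromosome. Bright areas differed in number and height. For chromosomes 6 and 16, 273 pairs of 1 Mb blocks exceeded 10 times the median non-zero block of that pair of chromosomes. For chromosomes 9 and 17 it was 201 pairs, and for chromosomes 1 and 20 it was 179. The brightest pair of 1 Mb blocks, starting at position 38000001 of chromosome 6 and 78000001 of chromosome 16, had 423 times the median. That of chromosomes 9 and 17, which hold the largest group of these members, had 79.8 times its median. The brightest pair of chromosomes 1 and 16, starting at 146000001 and 71000001, had 280 times its median, and that of chromosomes 12 and 20, starting at 1 and 62000001, had 240 times. Whether joined segments of rearranged chromosomes contribute to these blocks was not tested.

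In the 12 h signal, which chose the members, the other 2077 members were led by chromosome 17 in 66.8% of cases and by chromosome 16 in 20.7%. In bins that are no members the order was the opposite, with 35.01% led by chromosome 17 and 52.7% by chromosome 16. Bins over the 60% line were left out of the first set but not of the second. When the rule was applied after leaving out all bright block pairs, those over 10 times the median, 1883 of the 2196 members (85.7%) were chosen again.

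For each of the other chromosomes, the highest member with at least 3 of its 5 bins of 20 kb listed was taken. Led by 1 partner were chr12:100001-200000, with 39.2% in all and 24.7% to chromosome 20, chr2:133000001-133100000, with 32.0% in all and 22.9% to chromosome 20, and chr7:57600001-57700000, with 28.4% in all and 18.8% to chromosome 17. The members so taken from chromosomes 3, 4, 8, 11, 14, 15 and 21 had shares of 19.6 to 28.5%, and for each of them the largest single trans partner was chromosome 1, the largest chromosome. Without that limit 7 chromosomes had a higher member: 62.6% on chromosome 11, where chr11:100001-200000 sent 54.1% to chromosome 17, 55.1% on chromosome 1, 52.9% on 12, 47.5% on 9, 30.1% on 21, 27.3% on 15 and 26.5% on 10. Among those taken were chr21:46200001-46300000 with 28.5%, chr11:65600001-65700000 with 28.4% and chr15:41800001-41900000 with 25.5%. For chr5:70300001-70400000, with 21.9%, the first partner was chromosome 17. This bin had 435 trans contacts at 12 h, of which 16.6% went to the 4 chromosomes (95% Wilson interval 13.4 to 20.3%), and its share was 18.6 and 22.3% at 0.25 h, 11.98 and 6.46% at 1 h, 7.27 and 12.1% at 3 h, then 23.8 and 19.5% at 12 h, where the median bin of chromosome 5 had 10.6% at 12 h. For chr10:51400001-51500000, with 24.1%, it was chromosome 16.

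The gene-rich trans share of the members was also high in libraries that had no part in choosing them. Values over bins were taken from the 2122 members, and the 19543 other bins, in which at least 3 of 5 bins of 20 kb were listed in all 8 second-run files; 74 members were not used. The members' median share was 17.1 and 16.9% in replicates 1 and 2 at 0.25 h, 16.98 and 16.90% at 1 h, then 17.2 and 17.3% at 3 h. At 12 h, the time that chose them, it was 18.1 and 18.6%. Other bins had medians of 9.73 and 9.81% at 0.25 h and of 9.39 and 9.40% at 12 h. In the 6 libraries outside 12 h the members' median lay between 16.9 and 17.3% and was 1.72 to 1.78 times that of other bins.

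**Figure D1:**
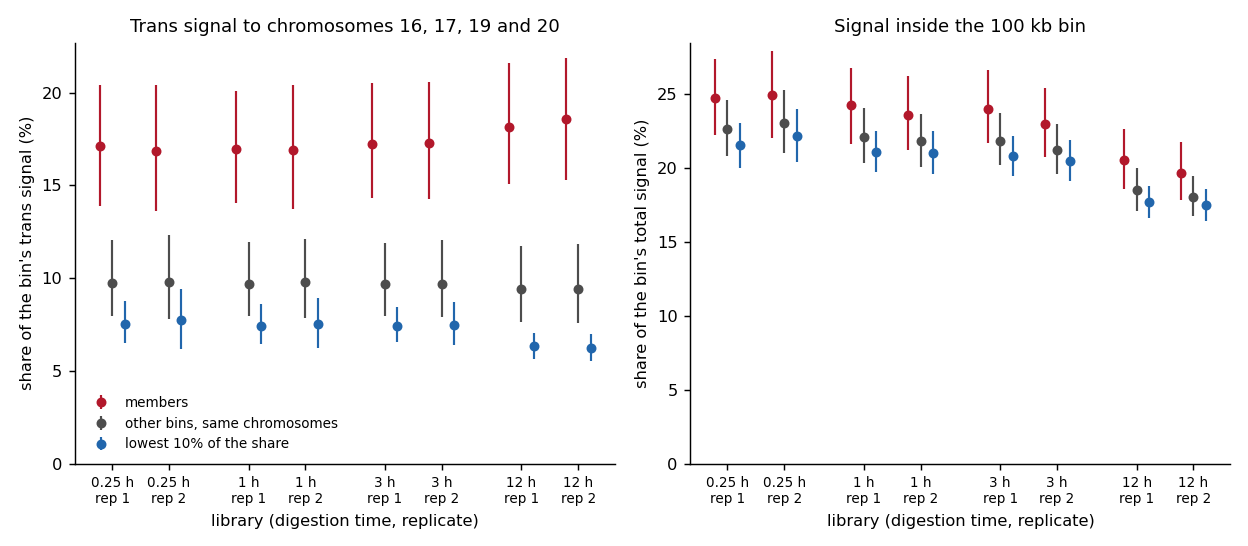
Gene-rich trans share (left, percent of a bin's trans signal) and self share (right, percent of a bin's total signal) in each second-run library, with points for the median over bins and bars for the middle 50% of bins. Members lie above other bins in every library in both panels, and the self share of all 3 sets is lowest at 12 h; the 12 h values on the left are those that chose the members.

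Membership itself recurred at the other times. With the 10% line drawn anew at each time, 1478 members (67.3%) were above it at 0.25 h, 1541 (70.2%) at 1 h and 1611 (73.4%) at 3 h. Other bins were above it in 3.63, 3.29 and 2.94% of cases. Members in runs of 10 or more recurred in 81.5, 86.2 and 88.9% of cases and single bins in 36.5, 39.0 and 40.7%. Members led by 1 chromosome recurred in 91.6, 95.8 and 96.6%. In the first-run files at 12 h, which hold other reads of the same libraries, 1449 members (66.0%) were above the line. At 0.25, 1 and 3 h the first-run files had 957 (43.6%), 1096 (49.9%) and 1127 members (51.3%) above it, and 6.24, 5.55 and 5.39% of other bins. Across the 21665 bins used, which share libraries and depth, Spearman's rho of the share with that at 12 h was 0.831 at 0.25 h, 0.856 at 1 h and 0.876 at 3 h.

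No change of this share with digestion was found among the times that did not choose the members. In limma, fitted on the 6 libraries of 0.25, 1 and 3 h over all 21665 bins, 0 of 2122 members passed a Benjamini-Hochberg adjusted p of 0.05 between 3 h and 0.25 h. The background was likewise 0.0% of bins. At an unadjusted p under 0.05 there were 149 members and 1048 bins in all. The members' median difference on the log2 scale was 0.03.

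The trans signal that did not go to the 4 chromosomes was also distributed differently. Measured as a percentage of trans signal outside chromosomes 16, 17, 19 and 20, which the rule did not divide, chromosome 22 stood apart. At 0.25, 1 and 3 h the members sent a mean of 2.76% to it and other bins 1.26%, a ratio of 2.18 ± 0.0419 (SD over 6 libraries), with 2.13 and 2.23 as the lowest and highest library. At 12 h the values were 3.09 and 1.26%, and bins of the lowest 10% sent 0.710%. Chromosomes inside and outside the rule can be set side by side only as shares of all trans signal. On that scale the ratio at 0.25, 1 and 3 h was 2.00 ± 0.0336 for chromosome 22, 1.97 ± 0.0434 for 19, 1.96 ± 0.0230 for 17, 1.47 ± 0.0233 for 16 and 1.33 ± 0.0227 for 20 (SD, 6 libraries). Chromosome 22 was above 16, 17 and 20 in 6 of 6 libraries and above 19 in 4 of 6, so 22 and 19 did not differ beyond their spread. At 12 h chromosome 19 had 2.299, and chromosomes 22 and 17 had 2.22 each. The 12 h signal to 19 and 17 chose the members, while that to 22 counted only in the total, so this order is a description only.

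As shares of trans signal outside the 4 chromosomes, chromosomes 15, 9, 1, 12 and 21 followed 22, with ratios of 1.27, 1.196, 1.17, 1.16 and 1.14, and then 11 and 10 with 1.07 and 1.06. Chromosome 14 had 1.00, with libraries on both sides of 1. At the other end, the members sent less to chromosome X, with a ratio of 0.752, and to chromosomes 4, 13, 8, 5 and 18, with 0.798, 0.803, 0.860, 0.893 and 0.902. The order was not that of gene density alone. Chromosomes 13, 18 and 4 have the fewest genes per Mb, but chromosome X, with the lowest ratio, has rank 14 of the 23, and chromosome 21, with rank 19, had a ratio above 1. The SD of these ratios over the 6 libraries was at most 0.0419, that of chromosome 22. It was 0.0085 for chromosome 1, 0.0051 for 12, 0.010 for 4 and 0.013 for 13. As shares of all trans signal, chromosome 1 was above 12 in each of the 6 libraries. Chromosomes 4 and 13 changed order between libraries and do not differ clearly. The ends of the order lay further apart than these SDs. Shares sum to a fixed total, so a higher share for one partner lowers the others. Over the 19 partners outside the rule, the ratio rose with genes per Mb of full length, with a Spearman's rho of 0.714. This is a description over chromosomes that differ in length and share all libraries.

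**Figure D2:**
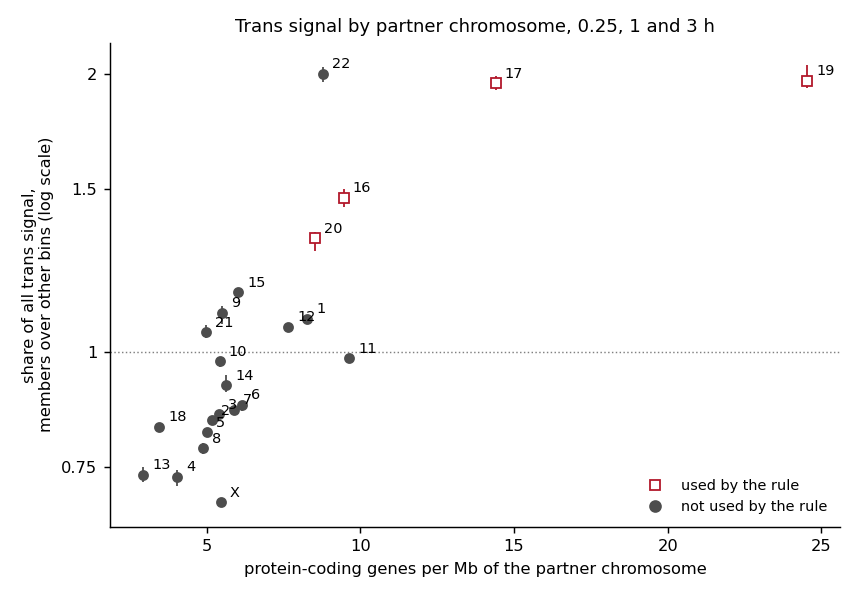
Share of all trans signal in the members over that in other bins, by partner chromosome, against the protein-coding genes per Mb of the partner; points are means over the 6 libraries of 0.25, 1 and 3 h, bars their range, and the y axis is logarithmic. Chromosome 22, which the rule did not use, lies with 19 and 17 at 1.96 to 2.00, and chromosome X is lowest, at 0.687.

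The members kept less of their signal within their own chromosome than other bins did. The median cis share, which includes signal inside the bin, was 85.5 and 84.6% at 0.25 h, 85.1 and 84.4% at 1 h, 85.1 and 84.3% at 3 h, then 83.8 and 83.1% at 12 h in replicates 1 and 2. Other bins had 89.1 and 88.5% at 0.25 h and 88.1 and 87.9% at 12 h, and the lowest 10% had 90.5 and 89.9% and then 89.9% in both. The members were lower in all 8 libraries, by 3.57 to 4.81 percentage points, and no member median overlapped one of the other bins. Trans signal made up 14.9% ± 0.661 of the members' total at 0.25 h and 16.5% ± 0.457 at 12 h (SD, n = 2), against 11.2% ± 0.431 and 12.0% ± 0.141 in other bins.

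The shortfall in cis signal lay at distances over 1 Mb. Signal at 1 to 2 Mb had a median of 5.31 and 5.37% in the members and 7.40 and 7.36% in other bins at 0.25 h, and 5.21 and 5.42% against 7.74 and 7.85% at 12 h. At 2 to 10 Mb the members had 9.07 and 8.96% at 0.25 h and 7.80 and 8.04% at 12 h, where other bins had 12.1 and 12.2%, then 11.3 and 11.6%. At 10 Mb or more they had 7.54 and 7.79%, then 7.95 and 8.27%, against 9.68 and 9.74%, then 10.3 and 10.5%. Members were lower in all 8 libraries at each of these distances, with ratios of 0.674 to 0.799.

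Below 1 Mb, outside the bin, the balanced signal of the members was higher, 38.0 and 36.7% at 0.25 h and 41.4 and 40.8% at 12 h, against 36.1 and 34.9%, then 39.0 and 38.6%. This excess depended on balancing. In recovered contacts the ratio of members to other bins under 1 Mb ran from 0.966 to 1.00, with members higher in 2 of 8 libraries, whereas the deficits over 1 Mb remained in all 8. Of the cis signal outside the bin, the part under 1 Mb was 62.8% ± 0.584 in the members and 54.3% ± 0.614 in other bins at 0.25 h, and 65.5% ± 0.830 against 56.0% ± 0.575 at 12 h (SD, n = 2). In recovered contacts this part was also higher in the members in all 8 libraries, by 4.74 to 7.09 percentage points.

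**Figure D3:**
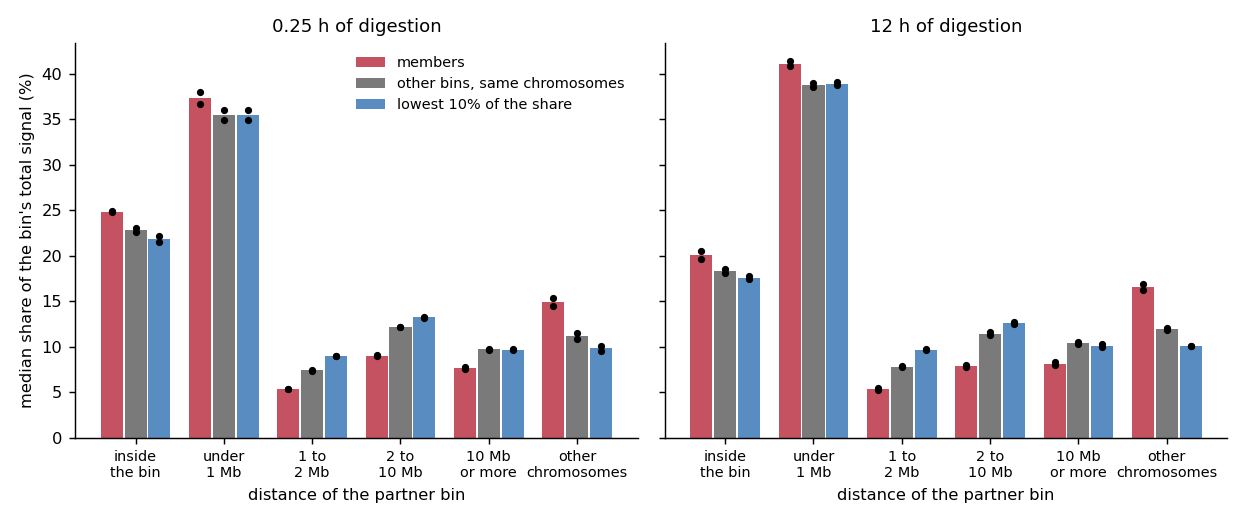
Median share of a bin's total balanced signal by distance of the partner bin at 0.25 h (left) and 12 h (right) for members, other bins of the same chromosomes and the lowest 10%; bars are means of 2 libraries and points the libraries. Members are lower at every distance from 1 Mb up and higher with other chromosomes, 16.5% against 12.0% at 12 h.

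The members preferred each other at long range within a chromosome in balanced signal. Cis signal was divided by the mean of all bin pairs at the same distance on the same chromosome. Pairs of members over 20 Mb apart had 1.76 and 1.79 times the expected signal at 0.25 h, 1.77 and 1.83 at 1 h, 1.78 and 1.81 at 3 h, then 1.84 and 1.87 at 12 h. Between 5 and 20 Mb they had 1.04 in both replicates at 0.25 h and 1.10 and 1.11 at 12 h, and between 1 and 5 Mb they were below 1, 0.822 and 0.821 at 0.25 h and 0.780 and 0.793 at 12 h. In balanced signal the 12 h libraries were thus the highest of the 8 at both longer distances and the lowest between 1 and 5 Mb. In recovered contacts they were the highest at all 3 distances, and pairs 1 to 5 Mb apart rose from 0.484 and 0.494 at 0.25 h to 0.525 and 0.542 at 12 h, so the direction at the shortest distance depended on balancing. Pairs 5 to 20 Mb apart were below 1 in recovered contacts, at 0.6555 and 0.671 at 0.25 h and 0.775 and 0.792 at 12 h. Whether these pairs lay above or below expectation thus depended on balancing too.

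Pairs of a member and another bin were below expectation at every distance, at 0.738 for 1 to 5 Mb and 0.800 for over 20 Mb at 0.25 h, then 0.682 and 0.786 at 12 h (means of 2). In recovered contacts these pairs were below expectation as well, with 0.540 and 0.628 at 0.25 h and 0.539 and 0.657 at 12 h. The lowest values were between members and bins of the lowest 10%. Over 20 Mb apart these were at 0.440 in both replicates at 0.25 h, 0.428 and 0.419 at 1 h, 0.414 and 0.406 at 3 h, then 0.363 and 0.364 at 12 h, so that every library was lower than those of the time before. Bins of the lowest 10% had 1.58 to 1.64 times the expected signal with each other at this distance. In recovered contacts, which keep the lower coverage of the members, pairs of members over 20 Mb apart were at 0.999 and 1.04 at 0.25 h and 1.19 and 1.24 at 12 h, and other bins with each other at 1.07 to 1.08 at both times. Without the members led by 1 chromosome the balanced values of member pairs over 20 Mb apart were 1.81 ± 0.0238 at 0.25 h and 1.89 ± 0.0282 at 12 h (SD, n = 2).

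**Figure D4:**
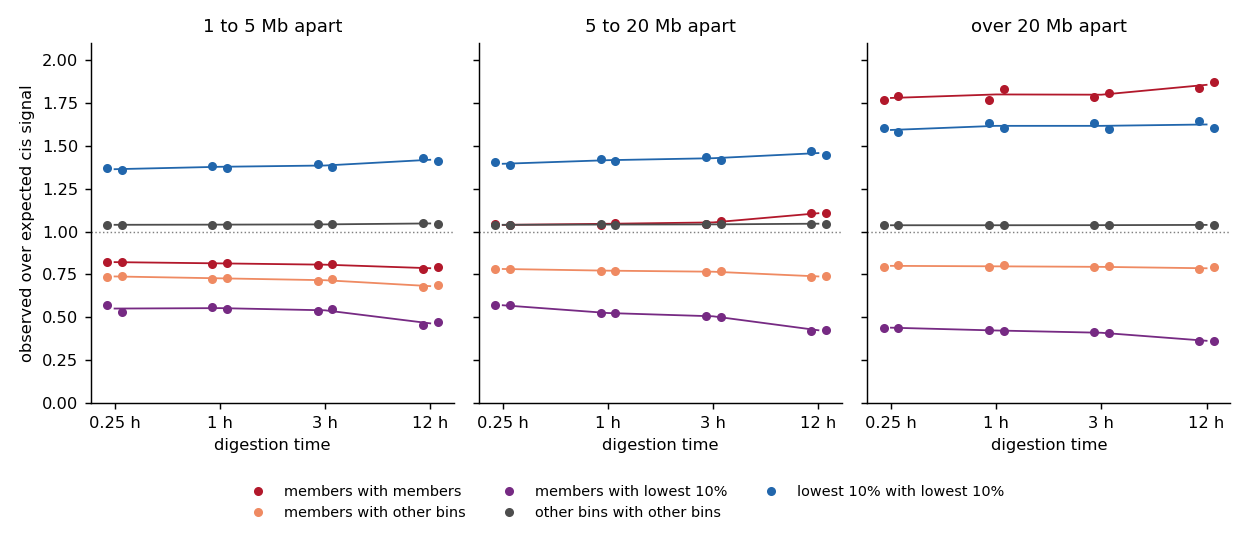
Observed over expected balanced cis signal by digestion time for pairs of bins 1 to 5, 5 to 20 and over 20 Mb apart; points are libraries and lines join the means of 2. Pairs of members over 20 Mb apart are highest, at 1.76 to 1.87, and pairs of a member and a bin of the lowest 10% are lowest, falling from 0.440 to 0.363 between 0.25 and 12 h.

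Over all distances above 1 Mb, pairs of members were below the expected signal, at 0.904 at 0.25 h and 0.893 at 12 h (means of 2). Chromosomes differed on this measure. Members of chromosome 9 had 1.28 times the expected signal with each other at 0.25 h and 1.33 at 12 h, and those of chromosome 10 had 1.26 and 1.25. Chromosomes 9 and 10 alone were above 1 at 0.25 h, and chromosomes 7 and 8, with 1.03 each, joined them at 12 h. Without the members led by 1 chromosome, those of chromosome 9 had 1.10 at both times. The lowest values were on chromosome 6, 0.729 and 0.699, and chromosome 11, 0.754 and 0.723, which hold the 3 longest runs.

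The self share, the part of a bin's signal that stays inside the 100 kb bin, was higher in the members than in other bins at every digestion time. Its median was 24.8 and 24.9% at 0.25 h, 24.3 and 23.6% at 1 h, 24.01 and 22.99% at 3 h, then 20.6 and 19.7% at 12 h. Other bins had 22.6 and 23.1%, 22.1 and 21.8%, 21.9 and 21.2%, and 18.5 and 18.1%. The 12 h libraries were the lowest in both sets, and the members exceeded the other bins in all 8 libraries by 1.63 to 2.16 percentage points. At the scale of single bins of 20 kb the sets were nearly alike in balanced signal. The members had 7.80 and 8.81% at 0.25 h and 4.33 and 4.21% at 12 h, and other bins had 7.56 and 8.70%, then 4.27 and 4.21%, with ratios of 1.00 to 1.03. In recovered contacts the members were higher in all 8 libraries at both scales, with ratios of 1.04 to 1.07 for 100 kb and 1.05 to 1.095 for 20 kb.

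The self share fell between 0.25 and 12 h in most members. In limma, over all 27781 bins tested on chromosomes 1 to 22 and X, 1789 of 2122 members (84.3%) were lower and 4 were higher at an adjusted p under 0.05. The background was 92.6% of all bins lower and 0.054% higher. The median log2 difference was -0.30 in the members and -0.31 in all bins. Among the bins of the lowest 10%, 2055 of 2181 (94.2%) were lower. Members had fewer contacts, and the calls moved with contact level: in the quintile of bins with the fewest contacts 70.8% of members and 76.1% of other bins were called lower, and in the quintile with the most 98.9 and 99.6%. The median SE of the members was 0.0762 in the former and 0.0546 in the latter.

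Most of the fall came in the last step. The members' median log2 difference in self share was -0.06 from 0.25 to 1 h, -0.02 from 1 to 3 h and -0.22 from 3 to 12 h. From 0.25 to 1 h and from 1 to 3 h limma called 0 of 2122 members (291 and 119 at an unadjusted p under 0.05), against backgrounds of 0.0036 and 0.0%. From 3 to 12 h it called 1659 members lower (78.2%), against a background of 87.5%. The first-run files, with 8918994 to 20237350 contacts, gave 67.4% of members lower at 12 h than at 0.25 h and 72.7% of all bins.

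The largest fall belonged to chr11:3100001-3200000, a bin near the end of chromosome 11. Its self share was 26.4 and 28.7% at 0.25 h, 24.3 and 23.3% at 1 h, 20.4 and 19.4% at 3 h, then 13.76 and 14.02% at 12 h, a log2 difference of -0.98 (SE 0.058, limma adjusted p = 4.02e-05). The replicates differed by less than the steps from 1 h on, and the times did not overlap. For chr14:104500001-104600000 the self share was 23.3 and 32.0% at 0.25 h and 13.5 and 14.1% at 12 h, a log2 difference of -0.98 (SE 0.151, limma adjusted p = 0.000177). For chr9:138800001-138900000 it was 18.6 and 24.3%, then 11.8 and 10.2% (-0.95, SE 0.135, limma adjusted p = 0.000126). For both bins the 0.25 h replicates lay far apart but above both 12 h values. The bins chr10:72100001-72200000 and chr7:61200001-61300000 followed with -0.89 (SE 0.084) and -0.85 (SE 0.255). The latter rests on 1 replicate, with 34.2 and 38.9% at 0.25 h but 27.7 and 14.7% at 12 h.

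Only 4 members were called higher at 12 h. For chr7:5900001-6000000 the self share was 8.80 and 12.0% at 0.25 h, 14.6 and 12.9% at 1 h, 13.2 and 10.99% at 3 h, then 16.2 and 14.2% at 12 h (log2 difference 0.55, SE 0.160, limma adjusted p = 0.00673). For chr11:68100001-68200000, chr10:42600001-42700000 and chr12:6700001-6800000 the differences were 0.40, 0.37 and 0.23, with limma adjusted p of 0.0498, 0.0135 and 0.0372. With the replicate number as a block, chr11:68100001-68200000 no longer passed (limma adjusted p = 0.0673). All but chr11:68100001-68200000 turned to a fall under another processing, and the rises are not stable calls. In chr7:5900001-6000000 the difference was -0.45 in the first run and -0.02 in single 20 kb bins, in chr10:42600001-42700000 it was -0.34 in recovered contacts and -0.35 in 20 kb bins, and in chr12:6700001-6800000 it was -0.39 in the first run and -1.25 in 20 kb bins.

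Cis signal fell relative to trans signal in some members. The 12 h trans signal in this ratio was also the denominator of the share that chose the members. The contrast with 12 h, and its excess in the members, is thus not independent of that choice. The log2 ratio of cis to trans signal was lower at 12 h than at 0.25 h in 160 of 2122 members (7.54%) and higher in 3, where 3.2% of all bins were lower (limma, adjusted p under 0.05). The median difference was -0.18 in the members and -0.12 in all bins. This count rests on few libraries. Without 12 h replicate 1 or 2 it was 3 and 2 (backgrounds of 0.0252 and 0.0108% of bins) and without either 3 h library it was 5 (0.0648%). Without 1 h replicate 1 or 2 it was 50 and 51 (0.961 and 0.997%), and without 0.25 h replicate 2 it was 415 (19.6% of members, against 9.51% of all bins). With the replicate number as a block it was 573 of 2122, against a background of 13.5%. For recovered contacts the members were also chosen anew on contacts, which kept 1895 of the 2196 members, so values and members changed together. Of the members so chosen 54.3% were lower, against 52.5% of all bins, so their excess over the background was then small.

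With signal inside the bin left out, the median fall in cis against trans signal was smaller and few members were called. Only 3 members were called, 1 higher and 2 lower, against a background of 0.0252% (limma; 336 members at an unadjusted p under 0.05), with 53 without 0.25 h replicate 1 (2.50%, against 2.07% of all bins), 0 without 0.25 h replicate 2 or 12 h replicate 1 (0.0% of all bins), and 1 without 12 h replicate 2 or either 3 h library (0.0036% of all bins). The median difference was -0.08 in the members and -0.02 in all bins. This contrast, too, holds the 12 h trans signal that entered the rule. The members called lower included chr5:70300001-70400000 (-0.925, limma adjusted p = 0.00824). Its gene-rich trans share was 7.27 and 12.1% at 3 h, then 23.8 and 19.5% at 12 h. In recovered contacts, with the members chosen anew on contacts as above, 54 were lower and 9 higher, against backgrounds of 1.44 and 0.518%.

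Of the cis signal outside the bin, the part under 1 Mb rose in some members. The log2 ratio of signal under 1 Mb to signal beyond was higher at 12 h in 116 members (5.47%) and lower in 2, where 2.14% of all bins were higher (limma, adjusted p under 0.05). The median difference was 0.16 in the members and 0.10 in all bins. The count was 451 without 0.25 h replicate 1 (21.3% of members, against 13.9% of all bins) and 29 without 0.25 h replicate 2 (1.37 against 0.425%). It was 76 without 3 h replicate 1 (3.58 against 1.21%), and 6 and 13 without 12 h replicate 1 and 2 (backgrounds of 0.0936 and 0.184%). With the replicate number as a block it was 420 (19.8%), against a background of 12.0%. In recovered contacts, with the members again chosen anew on contacts, 60.2% of them were higher against 30.2% of all bins.

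The members held fewer contacts than other bins, and most gained contacts, relative to the depth of the library, with digestion. Their median of recovered contacts was 4253 and 2326 at 0.25 h, 4616 and 3059 at 1 h, 5672 and 4384 at 3 h, then 7822 and 6942 at 12 h, against 7300 and 3893, 7798 and 5068, 9373 and 7019, and 11870 and 10340 in other bins. The ratio ran from 0.583 to 0.672 over the 8 libraries. In trans contacts alone the sets were closer, with ratios of 0.906 to 1.04. The members were higher only in the 2 libraries of 12 h, the time that chose them, with medians of 1422 and 1290 against 1415 and 1241. At 0.25 h they had 687 and 390.5 against 758 and 424.

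Scaled contacts are a bin's contacts divided by the sum of contacts over all tested bins of the library. They were higher at 12 h than at 0.25 h in 1386 of 2122 members (65.3%) and lower in 260 (12.3%). Of all bins, 40.8% were higher and 26.3% lower (limma, adjusted p under 0.05). The median log2 difference was 0.18 in the members and 0.03 in all bins. With size factors from the median of ratios, which shift the balance of all bins to 34.0% higher and 33.6% lower, 1246 members were higher and 345 lower. Leaving out contacts inside the bin, an alternative added after the data were seen, gave 1451 members higher (68.4%), against 37.8% of all bins. As for the self share, limma called 0 members in either of the earlier steps (312 and 171 at an unadjusted p under 0.05), and 1187 were higher at 12 h than at 3 h, against a background of 32.9%.

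Contact level moved with this gain. In the quintile of all tested bins with the fewest contacts, which held 42.9% of the members, 87.0% of members and 73.3% of other bins were higher at 12 h. In the next quintiles the values were 68.5 against 54.7%, 51.8 against 39.2%, 33.3 against 23.4% and, in the quintile with the most contacts, 13.7 against 8.35%. The members were thus above other bins in each quintile, and the difference between quintiles was larger than that between members and other bins. The part of contact level in the members' gain was not tested.

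**Figure D5:**
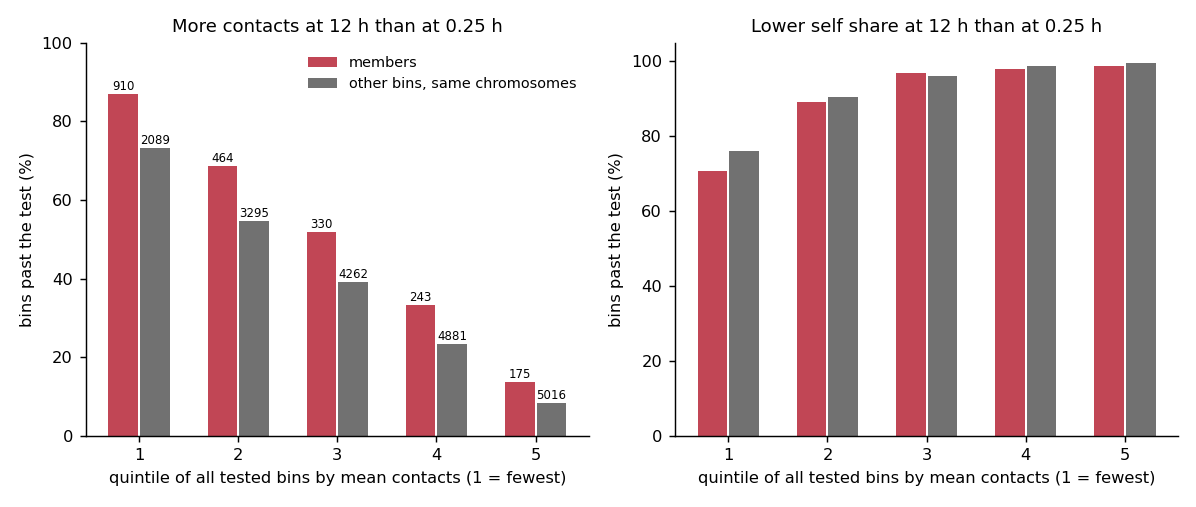
Percentage of members and of other bins with more contacts at 12 h than at 0.25 h (left) and with a lower self share at 12 h (right), by quintile of all tested bins in mean contacts per library; numbers above the bars are bins. Gains fall from 87.0% of members in the first quintile to 13.7% in the last, and falls in self share go from 70.8 to 98.9%.

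The percentage of members that gained contacts ranged widely over chromosomes and kinds of member. Of all bins tested, 40.8% were higher. On chromosome 21, 34 of 35 members tested (97.1%) were higher at 12 h, and on chromosome 11 it was 91.2%, with median log2 differences of 0.44 and 0.41 where other bins of these chromosomes had -0.01 and 0.05. On chromosome 9 only 34.7% were higher, less than among all bins, with a median of 0.02, below the 0.08 of its other bins. Chromosome 5 had 40.5%, about the percentage of all bins, with medians of 0.03 in its members and 0.01 in its other bins. Members led by 1 chromosome were higher in 42.6% of cases, also near that of all bins, and the others in 66.5%. Members in runs of 10 or more were higher in 73.4% and single members in 55.6%, and members near a chromosome end in 83.2% and members elsewhere in 61.2%. End bins that are no members were higher in 72.0%. These kinds also differed in contact level, whose part was not tested. Median contacts per library were 6196 in members led by 1 chromosome and 4816 in the others. They were 4394 in runs of 10 or more and 5610 in single members. Members near an end had 3040, members elsewhere 5328 and end bins that are no members 5848.

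The largest gain was that of chr7:900001-1000000, with 380 and 177 contacts at 0.25 h, 407 and 291 at 1 h, 544 and 539 at 3 h, then 1252 and 1094 at 12 h. In scaled contacts the log2 difference was 1.13 (SE 0.126, limma adjusted p = 1.11e-05), and both 12 h libraries were above all others. It was followed by chr8:144300001-144400000 with 1.10 (SE 0.070) and chr9:139900001-140000000 with 1.05 (SE 0.102). All 3 bins lie within 5 Mb of a chromosome end. The largest fall was that of chr7:61800001-61900000, a bin led by chromosome 16. It had 34180 and 22390 contacts at 0.25 h and 42880 and 36780 at 12 h, more contacts as such but a log2 difference in scaled contacts of -0.52 (SE 0.066, limma adjusted p = 2.72e-05). The bins chr1:23300001-23400000 and chr5:68800001-68900000 had -0.46 (SE 0.047) and -0.44 (SE 0.063).

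In the 5 longest runs most members were lower in self share and higher in contacts at 12 h. Over all bins tested the backgrounds were 92.6% and 40.8%, so the runs lay below the background in self share, as the members did as a whole, and above it in contacts. In chr6:29700001-36000000 the median self share was 24.2% ± 0.438 at 0.25 h and 19.4% ± 0.664 at 12 h (SD, n = 2), 50 of 63 members were called lower, and 54 had more scaled contacts at 12 h. In chr11:63200001-68700000 it was 26.0% ± 0.545 and 21.9% ± 0.508, with 41 of 55 lower in self share and 51 higher in contacts. In chr3:48300001-53700000 it was 27.3% ± 0.440 and 22.2% ± 0.239, the highest of the 5 longest runs at both times, with 45 of 54 lower and 44 higher in contacts. In chr4:1-5400000, which includes the end of the chromosome, 43 of 53 tested members were lower in self share and 50 were higher in contacts. In chr6:38100001-43700000, of whose 56 members 30 were led by chromosome 16, 50 were lower in self share and 44 higher in contacts. The median gene-rich trans share of this run was 22.1% ± 0.728 at 0.25 h, 21.7% ± 0.208 at 1 h and 21.5% ± 0.279 at 3 h.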

How the data were processed

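Hi-C contacts were measured in 8 libraries of K562 cells, each sequenced in 2 runs, giving 16 files. Reads were processed with HiC-Pro 2.11.1 and Bowtie2 2.3.4.1 on build hg19, per the submitters' processing notes; the balancing tool is not given in the sources used here. Each deposited file lists pairs of numbered bins, of 50 kb in the first run and 20 kb in the second, with a balanced contact signal, whose total was the same in every bin to within 0.00970%. Bin numbers were read as consecutive bins of chromosomes 1 to 22, X, Y and M, since the highest numbers equal those bin counts.

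Signal was summed to 100 kb. A factor per small bin was fitted to turn signal into whole contacts; at least 99.999989% of second-run values came within 0.01 of a whole number. Bins entered a test when at least 3 of their 5 bins of 20 kb were listed in all 8 second-run files. Self share was tested as log2(percent + 0.1) and ratios as log2 ratios. Contacts were tested as log2 of contacts scaled by their sum over all tested bins of the library. Fits used limma 3.58.1 in R 4.3.3 (a mean per time, trended eBayes, Benjamini-Hochberg over all bins tested). Descriptions used Python 3.11.15, numpy 2.4.6 and scipy 1.17.1. The recovery of contacts and the limma steps were tested on simulated data. Protein-coding genes per chromosome came from RefSeq for GRCh38.p14, divided by hg19 lengths, and no gene was assigned to a bin.

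The members and the measures were chosen with earlier results of these data known. Named bins are the 5 members with the highest share, the highest of each chromosome, the 5 longest runs, up to 5 largest falls and rises in self share and 3 in contacts among the members called, and the bins at the line on chromosomes 1, 6 and 21. The members with the highest share were taken among bins with at least 3 of 5 bins of 20 kb listed, unless stated. For scaled contacts, libraries of the same replicate number deviated together, with correlations of 0.165 to 0.501 between their deviations from the time means. The numbers may thus pair the libraries for that measure. For the other measures the correlations were -0.0142 to 0.0739. The fits reported, those of contacts included, held no replicate block unless the block is named. Alternatives varied the replicate block, the libraries, the filter, the rule, the fit, the balancing, the run, the pseudocount, the bin size and the distance. Leaving out members led by 1 chromosome, and contacts inside the bin, were added after the data were seen.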

Additional observations from a re-analysis of the deposited data

How the results depend on the processing

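Directions held widely. Counts of calls varied most for the cis to trans ratio, the ratio outside the bin and the share under 1 Mb, and less for self share and contacts. The members' median lay below that of all bins for the cis to trans ratio in 22 of 22 settings, and above it for the share of outer cis signal under 1 Mb and for contacts in 23 of 23 settings each. Outside the first run, the 12 h trans signal of the cis to trans ratio also entered the rule. The percentage of members called lower in self share was below that of all bins in 24 of 24 settings.

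With the replicate number as a block, the members called were 573 for the cis to trans ratio (13.5% of all bins), 420 for the share under 1 Mb (12.0%) and 5 for cis outside the bin against trans (0.0828%). For self share, contacts and the gene-rich trans share the block gave 1828 (93.2%), 1444 (43.9%) and 0 (0.0%), and among the bins named it ended 1 call, the higher self share of chr11:68100001-68200000, whose log2 difference of 0.40 then had a limma adjusted p of 0.0673. It changed no other call of a named bin. Leaving out each library in turn gave 1511 to 1811 members lower in self share, against 83.3 to 93.01% of all bins. It gave 2 to 415 lower in the cis to trans ratio (0.0108 to 9.51%) and 0 to 53 in the ratio outside the bin (0.0 to 2.07%). Under 1 Mb it gave 6 to 451 higher (0.0936 to 13.9%), and in contacts 1228 to 1446 higher (33.8 to 44.8%). In the gene-rich trans share 0 members were called in every such fit, and 0.0 to 0.023% of all bins. The 1047 members tested from the top 5% gave 859 for self share, 84 for the cis to trans ratio, 68 under 1 Mb and 749 for contacts, and the 4281 from the top 20% gave 3718, 266, 184 and 2555, with all bins at 92.6, 3.2, 2.14 and 40.8% as before. Requiring all 5 small bins gave 298 of 1795 for the cis to trans ratio (7.13% of all bins). With only the 2 times in the fit, that ratio gave 1 (0.0072%) and the ratio outside the bin 0 (also 0.0072%). Recovered contacts, with members chosen anew on them, gave 1148 of 2113 for the cis to trans ratio (52.5%), 63 outside the bin (1.95%) and 1271 under 1 Mb (30.2%). The first run, with the members unchanged, gave 2 (0.0288%), 0 (0.0%) and 1 (0.00721%). A distance of 2 Mb gave 216 (5.84%). The cause of these differences was not tested. The members' cis share at 12 h was -4.58 percentage points from that of other bins, -5.69 in recovered contacts and -4.05 with members chosen in the first-run files.

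Of the named bins, 6 differences in self share turned sign: -0.454 (first run) and -0.0229 (single 20 kb bins) for chr7:5900001-6000000, -0.336 (recovered contacts) and -0.346 (20 kb) for chr10:42600001-42700000, and -0.388 (first run) and -1.25 (20 kb) for chr12:6700001-6800000. Another 103 stayed the same and 17 lost the threshold; for contacts 77 stayed and 1 lost it. Membership near the line also moved with the libraries used. The rule on 12 h replicate 1 or 2 alone chose 1867 and 1852 of the 2196 members again, on recovered contacts 1895 and on the first run, which is shallower and in 50 kb bins, 1449, so the part of depth cannot be told apart there.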
